A study of Mus musculus with 59 samples.

Results

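The long noncoding RNA genes Snhg1, Snhg3, Gas5, Neat1, Malat1, Meg3 and H19 were followed across liver, bone marrow and spleen of baclofen-treated mice. A probe set, the group of array probes that reads 1 transcript, was taken when the platform annotation gave it exactly 1 gene symbol and that symbol was 1 of these 7. This gave 30 of the 34945 probe sets with 1 symbol, for 6 of the 18193 genes so represented. Malat1 had 7 probe sets, Meg3 11, Snhg1 5, Gas5 4, Neat1 2 and Snhg3 1. H19 had none with a single symbol and was not analysed here. The list was selected on measured values, the baclofen differences of Snhg3 and Neat1 in liver, so the liver values are given as a description, with no test.

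The samples came from B6C3F1 mice, a hybrid laboratory strain, whose age and sex are not given in the sources used here. Mice received baclofen, a muscle relaxant that activates the GABA-B receptor, or the vehicle alone, 0.5% methylcellulose, in 1 dose or in 5 daily doses, and tissues were taken 2 h after the last dose. The tissues were part of the left lateral liver lobe, marrow of the right humerus and part of a spleen cross-section. At 5 days every tissue was read in 4 vehicle and 8 baclofen samples. At 1 day marrow and spleen were read in 4 of each, and liver in 3 given vehicle and 4 given baclofen. The dose of baclofen was not given. The labels name no transgene or deletion, number the replicates without saying that each is another animal, and record a separate RNA kit for marrow.

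Snhg1, Snhg3 and Gas5 are host genes of small nucleolar RNAs: the small RNAs, which guide chemical modification of ribosomal RNA, are cut out of the introns, and the spliced exons remain as a noncoding transcript. Such host transcripts are known to be short-lived and sensitive to whether they are translated, and many start with a run of pyrimidines like the mRNAs of ribosomal proteins. Neat1 is the RNA scaffold of paraspeckles, nuclear bodies built with Nono, Sfpq and related proteins, and is known to be induced by several kinds of stress. Malat1, its neighbour in the genome, is an abundant nuclear RNA of splicing speckles. Meg3 is an imprinted RNA expressed from the maternal chromosome.

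The promoter windows of the small nucleolar RNA hosts are shown because Snhg3 and Snhg1 are the members with calls in bone marrow and Gas5 is the host with none. Windows run from 250 bases before to 50 bases after the first base of the transcript and come from RefSeq on build GRCm38.p6. Windows exist for 5 of the 7 genes, which have 1 or more windows there, 7 in all. Neat1 and H19 have none. Capitals mark matches to the motifs searched. The Snhg3 window lies at chr4:132353637-132353936 on the minus strand and the Snhg1 window at chr19:8723237-8723536 on the plus strand. The Gas5 window shown lies at chr1:161034916-161035215 on the plus strand. The other Gas5 window, at chr1:161034351-161034650 on the plus strand, held no match and is not shown. The sequences run 5′ to 3′ along the transcript.
Snhg3: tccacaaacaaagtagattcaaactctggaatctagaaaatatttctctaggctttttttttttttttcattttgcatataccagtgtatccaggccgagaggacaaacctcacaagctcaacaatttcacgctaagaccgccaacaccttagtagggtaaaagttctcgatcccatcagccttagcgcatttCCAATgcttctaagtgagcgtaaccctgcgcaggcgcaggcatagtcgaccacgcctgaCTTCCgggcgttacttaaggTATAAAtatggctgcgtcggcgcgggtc
Snhg1: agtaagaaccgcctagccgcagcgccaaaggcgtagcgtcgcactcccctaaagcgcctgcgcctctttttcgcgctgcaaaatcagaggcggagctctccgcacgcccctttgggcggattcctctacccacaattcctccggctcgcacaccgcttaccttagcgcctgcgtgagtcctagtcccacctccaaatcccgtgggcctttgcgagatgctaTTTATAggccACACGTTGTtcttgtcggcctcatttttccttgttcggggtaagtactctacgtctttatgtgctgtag
Gas5: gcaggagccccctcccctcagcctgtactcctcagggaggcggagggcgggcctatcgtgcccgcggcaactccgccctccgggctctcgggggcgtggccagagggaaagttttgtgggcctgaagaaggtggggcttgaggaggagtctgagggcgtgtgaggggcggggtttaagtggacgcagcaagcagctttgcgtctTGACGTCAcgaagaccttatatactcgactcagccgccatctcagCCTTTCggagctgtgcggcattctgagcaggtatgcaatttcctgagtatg

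In the Snhg3 window the capitals are CCAAT from -57 to -53, a pyrimidine tract from 3 to 7 and TATAAA from 23 to 28, counted from the first transcribed base. The tract sought was a C within 3 bases of the start followed by at least 4 C or T, and 11.5% of the 32851 windows in the table hold one. CCAAT was found in 37.4% of all windows and TATAAA in 13.6%. In the Snhg1 window, TATAAA lies on the opposite strand from -29 to -24. ACANNNTGT, the inner letters of the steroid receptor site, lies from -19 to -11. ACANNNTGT was found in 6.85% of all windows. In the Gas5 window shown, TGACGTCA, the full cAMP response element, lies from -46 to -39 and a pyrimidine tract from -1 to 5. Of all windows 1.79% hold TGACGTCA. The other motifs searched on both strands, CACGTG (7.15% of windows), TGTTTAC (3.65%) and GAANNTTC (7.86%), were in none of these 3 windows. A match describes the letters only.

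Precision is set here by how many arrays a group has, since an intensity carries no count. The array medians lay between 34.7 and 36.8 in liver, 72.6 and 76.1 in bone marrow and 74.3 and 77.6 in spleen, so the tissues appear to have been normalized apart and a gene's levels are not compared between them. Hepatocyte, neutrophil and B cell markers were highest in liver, bone marrow and spleen respectively. A few arrays held transcripts of another tissue. Averaged over 10 hepatocyte genes, log2 intensity was 7.15, 10.03 and 9.78 in the spleens of vehicle 5 day replicates 1 and 3 and baclofen 5 day replicate 5, against a spleen median of 4.91, and 6.05 in vehicle 5 day replicate 4. The mean of 11 skeletal muscle genes was 9.71 in bone marrow baclofen 1 day replicate 3, against a marrow median of 7.21. Of the 7 liver arrays at 1 day, 5 carry another treatment in the source field than in the title and the treatment field, which were followed here.

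Snhg3 was higher in every baclofen liver than in every vehicle liver of the same time. At 1 day its RMA intensity was 92.1, 51.4 and 56.2 in the vehicle livers and 960.1, 715, 247 and 785 in the baclofen livers. The lowest baclofen value was above the highest vehicle value, and the other 3 baclofen livers lay close together. The log2 difference was 3.23 ± 0.45 (SE, n = 3 and 4), which is 9.40-fold. At 5 days the vehicle livers read 55.8, 82.2, 58.1 and 72.1, and the 8 baclofen livers ran from 91.8 through a median of 208 to 387. The groups again did not overlap, and the log2 difference was 1.63 ± 0.36 (SE, n = 4 and 8), or 3.09-fold. The vehicle livers of both times lay between 51.4 and 92.1, and the log2 difference changed by -1.60 ± 0.58 (SE) from 1 to 5 days. The 1-day direction depends on the labels: with the source field as the label, the difference was -1.26. All liver values at 1 day given here, those of the gene lists included, rest on the title and the treatment field, and with the source field 0 of all genes tested passed in liver at 1 day with limma. The 5-day difference itself does not change with that choice.

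Neat1 was lower in the baclofen livers after 5 doses, in 1 of its 2 probe sets. With 1428083_at, the brighter, the vehicle livers at 5 days read 2615, 1964, 2867 and 2201, and the 8 baclofen livers ran from 409 through a median of 752 to 1125. No baclofen liver reached the lowest vehicle liver, and the log2 difference was -1.77 ± 0.24 (SE), a level 3.40-fold lower. At 1 day the same probe set read 1878, 1250.0 and 797 in vehicle livers and 768, 1249, 891 and 1095 in baclofen livers. These groups overlapped, with a log2 difference of -0.32 ± 0.29, or -0.43 with the source field as the label. The vehicle livers themselves stood 0.95 ± 0.29 higher on the log2 scale at 5 days than at 1 day. The second probe set, 1442881_at, read 174, 155, 166 and 119.5 in the vehicle livers at 5 days and between 143 and 228 in the baclofen livers. It gave a log2 difference of 0.25 ± 0.13, in the other direction, so the lower Neat1 signal is a result of 1428083_at. With the mean of both probe sets the difference was -0.76. Where in the Neat1 transcripts the 2 probe sets lie was not analysed here. Mean levels of neutrophil and macrophage markers lay lower in most of the same baclofen livers. The mean log2 intensity of 9 mature neutrophil markers ran from 5.17 to 5.82 in vehicle and from 4.84 to 5.59 in baclofen livers at 5 days, with 7 of 8 baclofen livers below every vehicle liver. That of 9 macrophage markers ran from 8.12 to 8.65 and from 7.74 to 8.22, with 6 of 8 below every vehicle liver. Only 2 of the 9 neutrophil markers passed the brightness filter in liver. Lcn2, 1 of these 2, fell by 3.80, and hepatocytes are also known to make it. How far Lcn2 alone set the neutrophil mean was not tested. Of 9 tested macrophage markers Mpeg1 fell by 0.77. In bulk tissue, fewer cells of a type and less RNA per cell cannot be told apart, and the part of these cells in the Neat1 values was not tested.

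**Figure D1:**
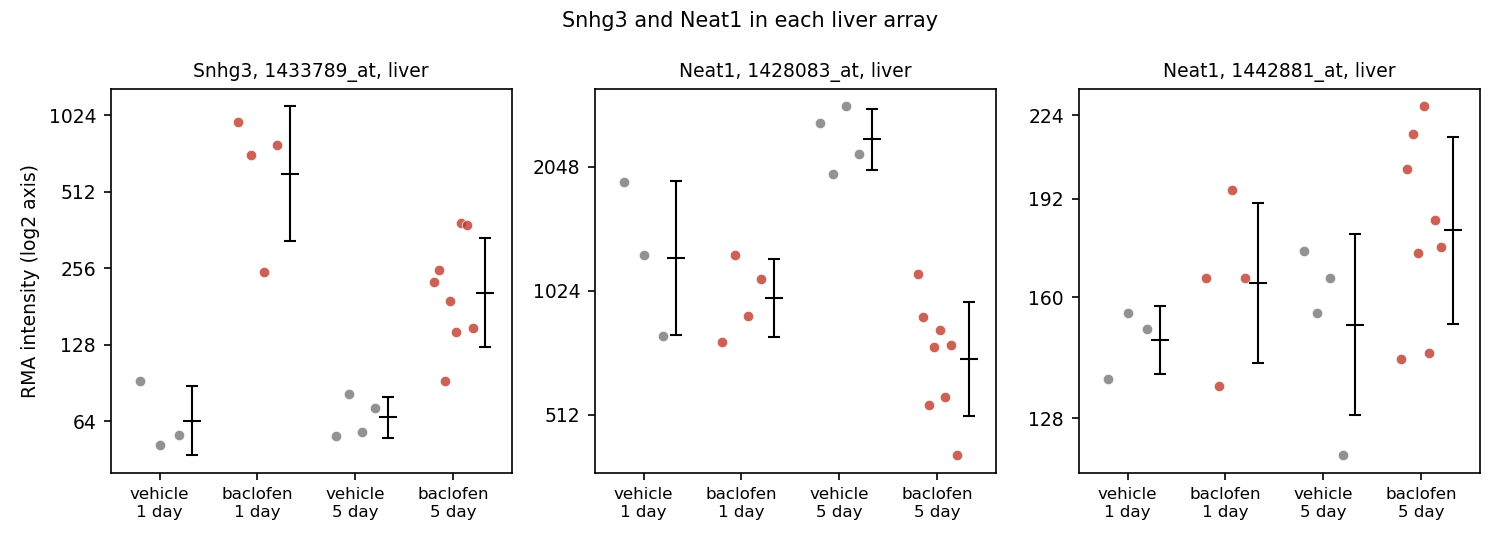
RMA intensity on a log2 axis (vertical) of Snhg3 and of both Neat1 probe sets in each liver array, by group (horizontal). Points are arrays, and the black mark and bar are the mean and SD of the log2 values. Snhg3 baclofen livers sit between 247 and 960.1 at 1 day and between 91.8 and 387 at 5 days, above the vehicle livers of the same time, whereas Neat1 is lower in baclofen livers at 5 days with 1428083_at only.

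The other 4 genes had liver differences between -0.02 and 0.46. Gas5 (1449410_a_at) had log2 differences of 0.04 ± 0.12 at 1 day and 0.10 ± 0.09 at 5 days, with vehicle intensities from 897 to 1219 over both times. Malat1 (1418189_s_at) had -0.02 ± 0.10 and -0.02 ± 0.08, with every liver between 5617 and 7455. Snhg1 (1433674_a_at) had 0.13 ± 0.19 at 1 day and 0.29 ± 0.15 at 5 days. Its livers read 235 to 261 in vehicle and 229 to 345 in baclofen at 1 day, and 264 to 464 and 304 to 513 at 5 days, so both pairs of groups overlapped. Over their probe sets, the 5-day liver differences ran from 0.21 to 0.32 for Snhg1, -0.35 to 0.10 for Gas5, -0.33 to 0.17 for Malat1 and -0.16 to 0.28 for Meg3. Meg3 (1452183_a_at) had 0.46 ± 0.25 at 1 day, with 3 of 4 baclofen livers above all vehicle livers, and 0.03 ± 0.20 at 5 days. Over all genes tested in liver, 2.67% passed adjusted p under 0.05 at 1 day, Snhg3 among them, and 10.6% at 5 days, Snhg3 and Neat1 among them. Since these contrasts were in view when the genes were chosen, nothing is read from those calls. Over the 19 liver arrays the SD of Snhg3 exceeded that of 99.9% of tested genes and the SD of Neat1 that of 99.2%. This spread takes in the baclofen differences by which both genes were chosen, so nothing is read from it either.

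The bone marrow and spleen contrasts were not used to choose the genes and were tested. The list was still made with earlier results of these data known, so these tests are not fully independent of the choice. Of the 6 genes, Snhg3 passed in marrow at 1 day, where 7.36% of all genes tested did, and Snhg1 passed in marrow at 5 days, where 10.1% did. Both calls sat near the threshold. None of the 6 passed in spleen, where 15.5% of genes passed at 1 day and 4.43% at 5 days, and the lowest unadjusted limma p of the 6 was 0.124 at 1 day and 0.296 at 5 days. Unless called unadjusted, p-values come from limma, are 2-sided and are adjusted by Benjamini and Hochberg over the 10916 genes of a tissue, over 34945 where probe sets were tested apart, and over 10218 for the difference between tissues.

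**Figure D2:**
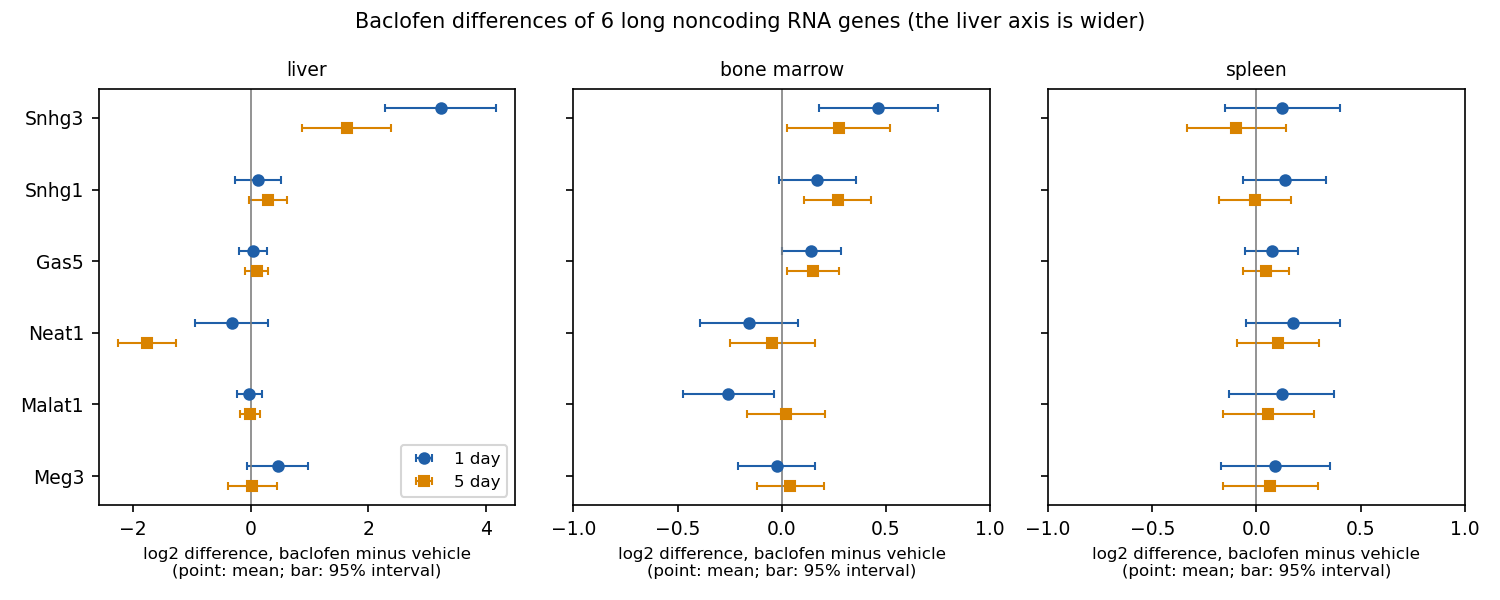
Log2 difference of baclofen minus vehicle (horizontal) of the 6 genes (vertical) in each tissue at 1 day (circles) and 5 days (squares), with 95% intervals from limma; the liver axis is wider. Snhg3 and Neat1 stand apart in liver, with 3.23 and -1.77 as the largest differences, and in marrow and spleen every point lies between -0.26 and 0.46.

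Snhg3 rose in bone marrow after 1 dose. The vehicle marrows read 179.9, 249, 161 and 209.9 and the baclofen marrows 322, 274, 229.5 and 270.4. Of the 4 baclofen marrows 3 were above every vehicle marrow, and the groups overlapped through 1 array of each. The log2 difference was 0.46 ± 0.14 (SE, n = 4 and 4), or 1.38-fold, with an adjusted p of 0.0454 by limma. Leaving out 1 array at a time ended the call for 12 of the 20 marrow arrays, with an adjusted p of 0.0507 to 0.166 there. These arrays were vehicle 1 day replicates 1, 3 and 4, baclofen 1 day replicates 1, 2 and 4, vehicle 5 day replicates 3 and 4 and baclofen 5 day replicates 1, 2, 3 and 6, and the difference stayed between 0.37 and 0.58. Without the array that held muscle RNA the difference was 0.54 and the adjusted p by limma 0.0182. The call was also lost with no brightness filter (adjusted p = 0.0632) and in a limma fit of only the groups compared (0.109).

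At 5 days Snhg3 did not pass in bone marrow. The vehicle marrows read 189, 255, 218 and 211, and the 8 baclofen marrows ran from 208 through a median of 265 to 301. The log2 difference was 0.27 (95% interval 0.02 to 0.52) and its adjusted p by limma 0.146. The change of the Snhg3 difference from 1 to 5 days, -0.19 ± 0.18, did not pass either (adjusted p = 0.968).

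Snhg1 rose in bone marrow after 5 doses. With 1439399_a_at the vehicle marrows read 1296, 1629, 1607 and 1397, and the 8 baclofen marrows ran from 1449 through a median of 1816 to 1943. Of the 8 baclofen marrows 7 were above every vehicle marrow, and replicate 8, at 1449, lay among them. The log2 difference was 0.27 ± 0.08 (SE, n = 4 and 8), or 1.21-fold, with an adjusted p of 0.0337 by limma. All 5 Snhg1 probe sets gave a positive difference, from 0.18 to 0.27, and with their mean in place of the brightest the adjusted p was 0.126. The call ended when any 1 of 7 arrays, vehicle 5 day replicates 1 and 4 and baclofen 5 day replicates 1, 2, 5, 6 and 7, was left out, with an adjusted p of 0.0522 to 0.154 by limma. At 1 day the difference was 0.17 (95% interval -0.01 to 0.36) and did not pass (adjusted p = 0.251).

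Gas5, the third host, gave 0.14 ± 0.07 at 1 day and 0.15 ± 0.06 at 5 days in bone marrow, with adjusted p by limma of 0.211 and 0.108. Its marrow intensities with 1419291_x_at ran from 1803 to 2177 in vehicle and 1939 to 2318 in baclofen at 1 day, and from 1972 to 2147 and 2083 to 2450 at 5 days. At 5 days 7 of 8 baclofen marrows stood above every vehicle marrow. Neat1 gave -0.16 ± 0.11 and -0.05 ± 0.10 in marrow and its second probe set -0.03 and -0.01. Meg3 gave -0.02 ± 0.09 and 0.04 ± 0.08. Malat1 (1418189_s_at) gave -0.26 ± 0.10 at 1 day, with 9612, 7545, 7614 and 6748 in baclofen and 8958, 9212, 10719 and 8562 in vehicle marrows, and its adjusted p was 0.135. Of the 4 baclofen marrows 3 lay below all vehicle marrows and 1 among them. At 5 days Malat1 gave 0.02 ± 0.09. When all probe sets were tested apart, none of the 30 passed in marrow at either time, where 3.16% and 3.26% of all probe sets did.

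Marker mRNAs of other marrow cells differed at 5 days as well. At that time 4 of 6 tested erythroid markers rose with baclofen, Alas2 by 0.41, Epor by 0.53, Gata1 by 0.31 and Slc4a1 by 0.35 on the log2 scale, and 1 of 9 neutrophil markers, Lcn2, fell. The mean log2 intensity of 7 erythroid markers ran from 10.74 to 11.11 in vehicle and from 11.10 to 11.38 in baclofen marrows at 5 days. The part of these cells in the Snhg1 result was not tested. At 1 day 0 of 6 erythroid and 0 of 9 neutrophil markers passed with limma. The mean log2 intensity of the neutrophil markers at 1 day ran from 13.75 to 13.83 in vehicle marrows and was 13.51, 13.67, 13.85 and 13.62 in baclofen marrows. Of the 4 baclofen marrows 3 lay below every vehicle marrow. The exception, replicate 3, also had the lowest Snhg3 value of its group and held the muscle transcripts. The part of neutrophils in the Snhg3 result was not tested. The 3' minus 5' signal of control transcripts, a measure of RNA integrity, averaged 0.09 ± 0.10 in vehicle and 0.06 ± 0.02 in baclofen marrows at 1 day, and 0.04 ± 0.01 and 0.09 ± 0.05 at 5 days (log2, SD). With it as a covariate neither call remained, at adjusted p of 0.0578 for Snhg3 and 0.0654 for Snhg1 by limma, and the differences were 0.43 against 0.46 and 0.26 against 0.27.

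**Figure D3:**
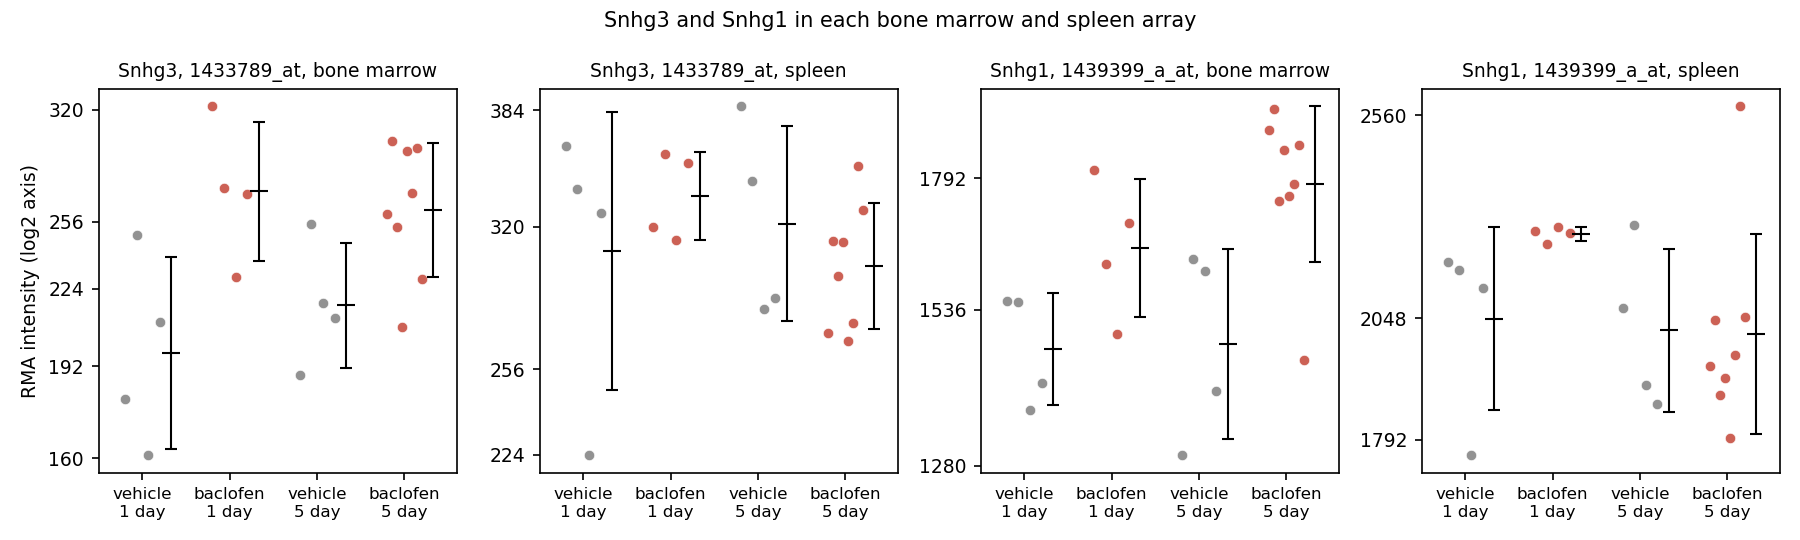
RMA intensity on a log2 axis (vertical) of Snhg3 and Snhg1 in each bone marrow and spleen array, by group (horizontal). Points are arrays, and the black mark and bar are the mean and SD of the log2 values. In marrow the baclofen arrays lie mostly higher but overlap the vehicle arrays, as with Snhg1 at 5 days, where 1 baclofen array at 1449 lies among them. In spleen at 5 days the differences are -0.10 for Snhg3 and -0.01 for Snhg1.

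In spleen Snhg3 read 363, 339.7, 224 and 327 in vehicle and 319.8, 359, 314 and 354 in baclofen at 1 day. The groups overlapped, with a difference of 0.12 (95% interval -0.15 to 0.40, adjusted p = 0.533 by limma). At 5 days it read 386, 344, 281 and 286 in vehicle and 267 to 352 in baclofen, a difference of -0.10 (-0.34 to 0.14). Snhg1 at 1 day read 2178, 2161, 1761 and 2118 in vehicle and 2254, 2223, 2264 and 2249 in baclofen spleens. Every baclofen spleen was above every vehicle spleen, yet 3 vehicle spleens lay close below, and the difference of 0.13 (-0.06 to 0.33) did not pass (adjusted p = 0.334). At 5 days the Snhg1 difference was -0.01 (-0.18 to 0.17). Gas5 gave 0.07 ± 0.06 and 0.05 ± 0.05, Neat1 0.18 ± 0.11 and 0.10 ± 0.09, Malat1 0.12 ± 0.12 and 0.06 ± 0.10, and Meg3 0.09 ± 0.13 and 0.07 ± 0.11 at 1 and 5 days. Without the 3 spleens that held hepatocyte RNA, none of the 6 passed at either time. Of the 5-day vehicle spleens only replicates 2 and 4 then remained.

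Single probe sets of Malat1 and Meg3 did pass in spleen when all 34945 were tested apart. Malat1 1436202_at read 944, 607, 578 and 630.3 in vehicle and 1464, 1214, 851 and 1518 in baclofen spleens at 1 day. Of the 4 baclofen spleens 3 were above every vehicle spleen. The difference was 0.86 ± 0.16 (SE), adjusted p = 0.00310 by limma, in a comparison where 8.15% of probe sets passed, and it passed with each of the 20 spleen arrays left out. The other 6 Malat1 probe sets gave -0.0045 to 0.26, so the rise was that of 1 probe set of 7. At 5 days 1436202_at gave -0.16 ± 0.14, and in marrow 0.31 ± 0.20 and 0.37 ± 0.17, none of which passed. In the same comparison 2 of 9 mature neutrophil markers, Cxcr2 and Mmp9, fell, and 1 of 6 B cell markers, Cd79a, and 1 of 6 endothelial markers, Pecam1, rose, and their part in the result was not tested.

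Meg3 1452905_at read 115.5, 84.9, 99.5 and 91.7 in vehicle spleens at 5 days, and the 8 baclofen spleens ran from 120.3 through a median of 150.1 to 183. All baclofen spleens lay above all vehicle spleens. The difference was 0.61 ± 0.12 (SE), adjusted p = 0.0126 by limma, where 2.17% of probe sets passed. The call ended without vehicle 5 day replicate 2 (adjusted p = 0.0740 by limma). It also ended without the 3 spleens that held hepatocyte RNA (0.73 ± 0.16, adjusted p = 0.0512 by limma). In that fit only replicates 2 and 4 of the 5-day vehicle spleens remained. Replicate 4 had a hepatocyte marker mean of 6.05, against a spleen median of 4.91. The other 10 Meg3 probe sets gave -0.03 to 0.37, among them 1436713_s_at with 0.37 ± 0.11 (adjusted p = 0.0876) and 1452183_a_at with 0.31 ± 0.10 (adjusted p = 0.0962). In spleen 1436713_s_at lay below the brightness filter, with a mean vehicle intensity of 26.8. For 1452905_at that mean was 97.2, while the lowest mean intensity of a tested gene was 79.5. The brightest, 1439380_x_at, gave 0.07 ± 0.11. In the same comparison 2 of 7 tested stromal markers rose, Dcn by 0.97 ± 0.19 and Lepr by 0.75 ± 0.16. The mean log2 intensity of 9 stromal and bone markers ran from 8.42 to 8.76 in vehicle and from 8.85 to 9.15 in baclofen spleens, with no overlap. Their part in the Meg3 result was not tested.

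**Figure D4:**
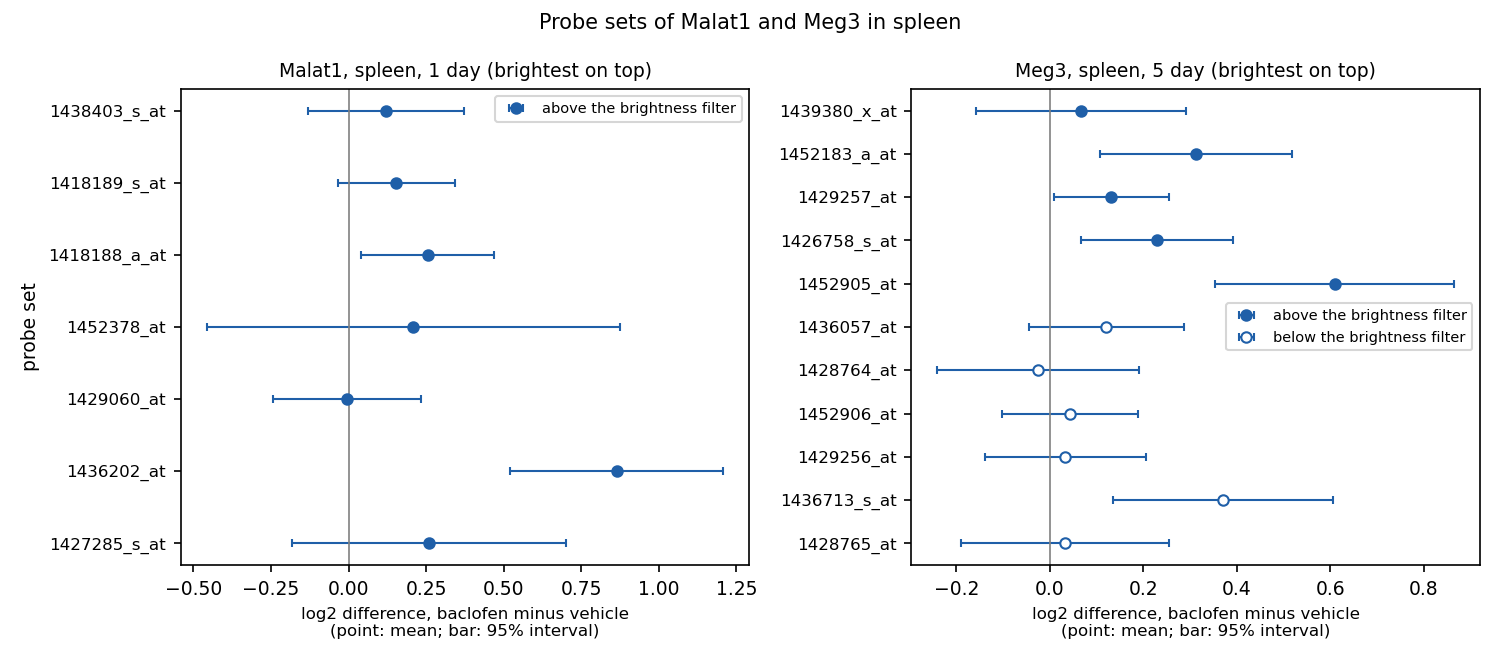
Log2 difference of baclofen minus vehicle (horizontal) with 95% intervals for each probe set (vertical, brightest on top) of Malat1 at 1 day and Meg3 at 5 days in spleen. Malat1 1436202_at, at 0.86, and Meg3 1452905_at, at 0.61, stand to the right of the other probe sets of their genes.

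None of the 6 genes passed a test between the times. In bone marrow 0% of all genes passed for the change of the baclofen difference from 1 to 5 days, with 559 of 10916 at an unadjusted limma p under 0.05, and 0% for vehicle at 5 days against 1 day, with 510. In spleen the same contrasts gave 0% with 858 genes and 0% with 378 genes at an unadjusted p under 0.05. Of the 6 genes, only Malat1 was under an unadjusted 0.05, for vehicle marrow at 5 days against 1 day, with -0.22 ± 0.10 (adjusted p = 0.906). The baclofen difference itself was compared between spleen and marrow over 10218 genes in 1 limma fit of all 12 groups, so that the liver arrays shared in the error estimate. Of these genes 1.91% passed at 1 day and 4.48% at 5 days. No member passed. The fit took all arrays as independent. The labels do not say whether marrow and spleen samples came from the same mice. Malat1 came nearest, with 0.15 in spleen and -0.26 in marrow at 1 day with 1418189_s_at, a difference of 0.41 ± 0.14 (adjusted p = 0.0879 by limma). Without spleen vehicle 1 day replicate 3 that difference passed. For Snhg1 at 5 days the difference between the tissues was -0.28 ± 0.16 (adjusted p = 0.286), and for Snhg3 -0.34 ± 0.39 at 1 day and -0.37 ± 0.34 at 5 days. A limma fit without the liver arrays, chosen after seeing the data, gave smaller errors for these hosts. There Snhg3 had -0.34 ± 0.20 at 1 day (adjusted p = 0.311) and -0.37 ± 0.17 at 5 days (0.181), Snhg1 -0.28 ± 0.11 at 5 days (0.138) and Malat1 0.41 ± 0.14 at 1 day (0.102). No member passed in it either, where 1.27% and 2.35% of genes did.

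Other small nucleolar RNA host genes were read from a list of 36, of which 26 had a probe set. Over all genes 7.36% and 10.1% passed in marrow at 1 and 5 days, 15.5% and 4.43% in spleen and 2.67% and 10.6% in liver. The same shares stand beside the counts of the lists that follow. In bone marrow 0 of 22 tested passed at 1 day with limma, while at 5 days 2 rose and 1 fell. The risers were the noncoding hosts Zfas1, by 0.21 ± 0.06, and Snhg8, by 0.19 ± 0.06. Hspa8, a chaperone mRNA whose introns hold small nucleolar RNAs, fell by 0.30. The list's median difference was 0.03 at both times, beside 0.00 over all genes. In spleen 2 of 24 rose and 2 fell at 1 day, and 1 rose and 1 fell at 5 days. Snhg16 rose at both times, by 0.29 ± 0.06 and 0.20 ± 0.05, Snhg17 rose by 0.27 ± 0.08 at 1 day, and Hspa8 fell by 0.47 and 0.29. In liver 0 of 25 passed at 1 day and 4 rose at 5 days, Snhg16 by 0.49 ± 0.12, Snhg12 by 0.37 ± 0.09, Snhg6 by 0.36 ± 0.11 and Ncl, the nucleolar protein nucleolin, by 0.31 ± 0.09. These 4 liver differences lie beside 1.63 for Snhg3 at the same time.

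The proteins that bind these small RNAs and the mRNAs that share the pyrimidine start were read from further lists. Of 12 small nucleolar ribonucleoprotein genes none passed in liver or bone marrow, and 4 fell in spleen at 1 day. These were the assembly helicases Ruvbl1 and Ruvbl2, by 0.51 and 0.35, and the assembly factors Shq1 and Naf1, by 0.30 and 0.26. Of 25 translation genes with a pyrimidine start, Npm1 rose by 0.24 in liver and Eif4b by 0.12 in bone marrow at 5 days, and none passed with limma in the other 4 comparisons. Host transcripts are known targets of nonsense-mediated decay. Of 14 decay factors, Upf2 fell by 0.68 in liver at 1 day, Smg6 and Smg5 rose by 0.26 and 0.16 and Smg8 fell by 0.24 in marrow at 5 days, and Smg8 fell by 0.29 in spleen at 1 day. Of the stress mRNAs known to be removed by the same decay, 3 of 11 rose in liver at 1 day, Cdkn1a by 2.60 ± 0.63, Gadd45b by 1.41 ± 0.22 and Herpud1 by 0.92 ± 0.16. At 5 days in liver Gadd45b rose by 0.58 ± 0.18 and Herpud1 by 0.48 ± 0.13, while Ddit3 fell by 0.39. In marrow 1 of 10 passed at 1 day, Herpud1, which rose by 0.55 ± 0.15, and at 5 days Gadd45a rose by 0.30 ± 0.07 and Chac1 fell by 0.37. In spleen 1 of 8 passed at 1 day, Herpud1, which rose by 0.76 ± 0.19, and none with limma at 5 days. The relation of the decay factors and stress mRNAs to the host transcripts was not tested.

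The protein partners of Neat1 and Malat1 came from lists of paraspeckle and speckle proteins. Of 23 paraspeckle protein genes, none passed in liver at 1 day and 2 rose at 5 days, Taf15 by 0.65 and Hnrnpa1 by 0.28. Tardbp, an RNA-binding protein, fell in marrow by 0.45 at 1 day and 0.24 at 5 days and in spleen by 1.01 and 0.52. In spleen Rbm14 fell by 0.65 and 0.53 and Fam98a by 0.42 and 0.37, and Cpsf6 rose by 0.24 at 1 day. Of 27 speckle protein genes, between 1 and 8 passed in each comparison, in both directions, where 2.67% to 15.5% of all genes did. Srsf5, a splicing factor, rose by 0.51 ± 0.12 in liver and 0.37 ± 0.10 in marrow at 1 day, while Luc7l3 fell by 0.63 and 0.47. Luc7l2 rose in spleen by 0.57 and 0.42 at 1 and 5 days. The list medians lay between -0.05 and 0.05 in all 6 comparisons for both lists.

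Among other nuclear long noncoding RNAs Mir22hg, the host of a microRNA, passed most often. It rose by 0.71 ± 0.12 in liver at 5 days and by 0.42 ± 0.08 and 0.33 ± 0.07 in marrow at 1 and 5 days. Dleu2 fell by 0.71 in marrow at 1 day, Dancr by 0.60 and Tug1 by 0.31 in liver at 5 days, and Oip5os1 by 0.27 in spleen at 1 day. The remaining members of that list, of 11 to 13 tested per tissue, did not pass in these comparisons. Of the imprinted growth genes, read for Meg3, 15 were tested in liver and 11 each in marrow and spleen. Impact rose by 0.61 in liver, 0.39 in marrow and 0.35 in spleen at 1 day. Gatm fell by 0.67 in spleen at 1 day and by 0.35 in liver at 5 days, where Slc38a4 rose by 0.31. Dcn and Plagl1 rose in spleen at 5 days, by 0.97 and 0.66, and none passed in marrow at 5 days with limma.

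RefSeq places Rcc1 and Trnau1ap on one side of Snhg3 and Phactr4 on the other, and their liver differences at 1 day were 0.02, 0.14 and 0.01. At 5 days Frmd8, beside Neat1 and Malat1 in RefSeq, had -0.21 ± 0.09 in liver (adjusted p = 0.144 by limma), while Slc25a45, the next gene, fell by 0.52 (adjusted p = 0.0115). A wider list of neighbour genes, not only those nearest by RefSeq order, was counted too. Of 23 tested in liver none passed at 1 day, and Slc25a45 and Stx5a fell at 5 days. In marrow 1 of 24 passed at 1 day, Frmd8, which fell by 0.34, and none at 5 days. In spleen 1 of 22, Taf12, fell at both times, by 0.49 and 0.37. Slc3a2, next to Snhg1, had 0.15 ± 0.08 in marrow at 5 days (adjusted p = 0.214).

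Which tested genes had the profile most like a member's was described by Pearson's r over the arrays of a tissue, for members with an SD above that of 90% of genes. The arrays share their group means, so r of the deviations from the group means is given too. In liver, over 19 arrays, Snhg3 was most like Dusp1 (r = 0.943, deviations 0.816), Zfp36 (0.943, 0.795), Rhob (0.933, 0.849), Pim3 (0.933, 0.720) and Cebpb (0.927, 0.741). A further gene known only by a clone identifier ranked among them and is not named. The differences of these 5 at 1 day were 2.10, 1.33, 0.98, 2.06 and 1.49, each below that of Snhg3. Neat1 was most like Pex11g (0.892, 0.739), Sec24c (0.844, 0.521), Tnip1 (0.827, 0.353), Fermt2 (0.824, 0.783) and Dbnl (0.824, 0.408). Snhg1 was most like Gnl3 (0.907, 0.800), Twistnb (0.870, 0.814), Nop56 (0.861, 0.791), Abhd17b (0.860, 0.785) and Wdr43 (0.853, 0.718). The gene most like Meg3 was Acsf2 (0.746, 0.717). In bone marrow, over 20 arrays, Snhg3 was most like Haus1 (0.906, 0.852), Srsf5 (0.905, 0.822), Eci2 (0.904, 0.810), Adat2 (0.899, 0.796) and Gins1 (0.898, 0.847).

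Genes known to answer to stress hormones, feeding and heat were counted in the same samples. Of 15 glucocorticoid response genes, 9 and 10 rose in liver at 1 and 5 days, 8 and 10 in marrow and 9 and 9 in spleen. Per1, a clock gene, rose by 2.14 and 2.22 in marrow, and Tsc22d3 by 1.47 and 1.43 in spleen. Of the feeding and mTORC1 genes, 6 and 7 of 14 rose in liver, 3 and 4 of 11 in marrow and 4 and 3 of 11 in spleen. Ddit4, an inhibitor of mTORC1, rose by 3.43 in liver at 1 day and by 2.30 and 2.35 in marrow. Of 11 heat shock genes, 0 and 1 fell in liver, 1 and 4 in marrow and 7 and 6 in spleen. In liver at both times and in marrow at 1 day these counts, 0 or 1 of 11, lie near the shares of all genes that passed, 2.67%, 10.6% and 7.36%. Their relation to the noncoding RNAs was not tested.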

How the data were processed

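RNA of 59 samples was read on Affymetrix arrays. The deposited intensity values, on a linear scale, were made by the authors with RMA, and limma is also named, per the submitters' processing notes; versions and settings are not given in the sources used here. Values were turned to log2 here. Of 45101 probe sets, 34945 had 1 gene symbol in the platform annotation and were used; 932 with several symbols, 9160 with none and 64 controls were not. The probe set with the highest mean in a tissue stood for its gene, and genes at or above the 40th percentile of that mean (10916 per tissue) were tested. Limma 3.58.1 in R 4.3.3 fitted 4 groups per tissue, with Benjamini-Hochberg adjustment and a threshold of 0.05, a separate fit held every probe set, and 1 fit of all 12 groups compared spleen with marrow. Scripts were tested on simulated data. P-values set a difference against the spread between these samples, which may be technical. Fold changes are on the RMA scale.

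The members and lists were chosen with earlier results of these data known. Named genes were all members, up to 4 genes of lowest adjusted p per list and comparison, neighbours by RefSeq order, and up to 5 genes of most similar profile; symbols that are only clone identifiers were counted, not named. Alternatives covered the filter, the probe set rule, scaling, array weights, thresholds, covariates, the replicate block, the label field and leaving out arrays; a spleen and marrow fit without liver was added after seeing the data. H19 was not analysed here.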

Additional observations from a re-analysis of the deposited data

Results flagged for a closer look

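Of 99 groups of 4 to 10 arrays looked at, 6 held a value far from the others of its group, and chance gives about 1 in 20. Malat1 (1418189_s_at) read 5758 in liver baclofen 1 day replicate 1, against 6960 to 7214 in the others. Meg3 (1439380_x_at) read 642 in bone marrow baclofen 5 day replicate 4, against 490.4 to 550.3. Snhg1 (1439399_a_at) was apart in 3 groups. It read 1449 in bone marrow baclofen 5 day replicate 8, against 1744 to 1943, 1761 in spleen vehicle 1 day replicate 3, against 2118 to 2178, and 2585 in spleen baclofen 5 day replicate 7, against 1794 to 2051. Neat1 (1428083_at) read 2114 in spleen vehicle 5 day replicate 2, against 2715 to 2802.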

How the results depend on the processing

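Of 814 bone marrow and spleen differences of the 6 genes recomputed under an alternative, 775 kept their side of the threshold. Differences that passed in neither fit were counted among these whatever their direction. Some of them changed sign, such as Snhg3 in spleen at 1 day, which went from 0.12 to as low as -0.03 with 1 array left out. Only Snhg3 in marrow at 1 day and Snhg1 in marrow at 5 days had passed to begin with. The Snhg3 call was lost in 12 of 20 fits with 1 array left out and in 6 of 13 other settings. The Snhg1 call was lost in 7 of 20 and in 8 of 14. In marrow at 1 day, where 1 gene passed, 0 passed at a 60th percentile filter (which drops Snhg3), with no brightness filter, all probe sets apart, the 3' to 5' covariate, adjusted p under 0.01, at least 1.5-fold or only the groups compared, and 3 with array weights (Malat1, Snhg1, Snhg3). The Snhg3 difference was 0.46 in these, or 0.43 with the covariate. In marrow at 5 days 1 gene became 0 with no filter, the mean of probe sets, all probe sets apart, the covariate, the 0.01 or 1.5-fold limit, the replicate block or only the groups compared, and 3 with array weights (Gas5, Snhg1, Snhg3). Snhg1 was then 0.27, or 0.22 with the mean, 0.26 with the covariate and 0.33 with the replicate block (adjusted p = 0.0833 by limma). Leaving out 1 array gave 0 to 1 genes in marrow at 1 day, 0 to 2 at 5 days and 0 to 1 for the spleen and marrow difference at 1 day, which was also 1 with array weights (Malat1). In spleen 1 gene passed with all probe sets apart at 1 day (Malat1) and at 5 days (Meg3), and Meg3 with the mean of probe sets (adjusted p = 0.0435). Snhg3 in liver at 1 day was -1.26 with the source field as label, and Neat1 at 5 days -0.76 with the mean of probe sets. Apart from what the settings themselves fix, the cause was not tested.

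Over all genes, leaving out 1 array gave 303 to 1405 calls in marrow at 1 day, 244 to 1674 at 5 days, 949 to 3049 and 135 to 757 in spleen, and 137 to 353 and 584 to 1544 in liver. The other settings gave 97 to 2416, 30 to 4404, 285 to 3651, 61 to 760, 0 to 537 and 287 to 1694. The setting with all probe sets apart counts probe sets in place of genes, and it gave the upper ends 760, 537 and 1694. Without the spleens that held hepatocyte transcripts, 173 genes passed at 5 days in place of 484. Of the 5-day vehicle spleens only replicates 2 and 4 remained in that fit. Replicate numbers are shared between groups. Within a tissue, deviations of same-numbered vehicle and baclofen samples correlated between -0.46 and 0.27 over the 6 comparisons, so they were not taken as pairs. Same-numbered samples of different tissues were not compared in this way. The replicate block changed no call of the 6 genes in marrow and spleen but that of Snhg1 in marrow at 5 days.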
